A study of Mus musculus with 9 samples.

Results

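The insulin-like growth factor (IGF) system was followed here through 10 genes in cultured mouse microglia: the ligands Igf1 and Igf2, the receptors Igf1r and Igf2r, the binding proteins Igfbp3, Igfbp4, Igfbp5 and Igfbp6, and the adaptors Irs1 and Irs2. The members were taken by gene name, as the non-control probes of the array files that carry 1 of these 10 names. They had 16 probes of the 55681 on the array, and 10 of its 34650 gene names. In all, 13 of these probes, for 9 of the 10 genes, rose well above background on 1 array or more and entered the test, against 34381 probes and 24101 genes over the whole array.

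IGF1 and IGF2 are small secreted peptides related to insulin. IGF1 acts through the tyrosine kinase receptor IGF1R, which recruits the adaptors IRS1 and IRS2 and, through them, PI3K, AKT and TOR, while active AKT keeps FOXO transcription factors out of the nucleus. IGF2R binds IGF2 and takes it to lysosomes without a kinase signal, and the IGF binding proteins carry the ligands and set how much of them reaches a receptor. In the brain, microglia are a known source of IGF1, a trophic factor for neurons, oligodendrocytes and neural progenitors.

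All 3 groups were primary microglia from the brains of fms-EGFP mice at postnatal day 0 to 1, in which the promoter of fms (Csf1r), active in microglia and macrophages, drives EGFP. The cells were pooled from pups and grown for about 14 d with GM-CSF at 5 ng/ml. Control microglia were naive and carry a time of 0 h. Phagocytic microglia had been fed apoptotic cells for 3 h (Ph3h) or 24 h (Ph24h). The food was SH-SY5Y, a human neuroblastoma line, labelled with CM-DiI and killed with staurosporine, an inducer of apoptosis, at 3 µM for 4 h. No unfed culture of 3 or 24 h was analysed here, so feeding and time in culture cannot be told apart. Each group had 3 arrays, described in the methods as independent experiments, so a p-value measures the spread between these pooled cultures. Replicates 1 and 2 were on slide 1 and replicate 3 on slide 2.

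Microglial markers were present in every group. Of 10 such markers, 10 were well above background in the control and Ph3h groups, and 9 in Ph24h, where P2ry12 was not. Their summed level is given relative to the array's 75th percentile. It ranged over the control arrays from 1020 to 1080, over Ph3h from 1470 to 1610, and over Ph24h from 852 to 875. By limma at an adjusted p under 0.05, 5 of the 10 were higher and 3 lower than in control at 3 h. At 24 h 2 were higher and 8 lower. Of all genes 27.5% were higher and 25.5% lower at 3 h, and 29.6% and 32.8% at 24 h. Of 16 markers of sympathetic neuroblasts, the type of SH-SY5Y cells, 10 were not well above background on any control array. Their summed level was no more than 1.49 on a control array, and ran from 179 to 196 for Ph3h and from 215 to 231 for Ph24h. The probes are of mouse sequence and the fed cells human, and the part that human RNA bound to mouse probes has in the values of any gene given here was not tested. Astrocyte marker sums were at most 19.3 on any array, and those of fibroblasts and mural cells at most 1.79. Endothelial sums ranged from 8.17 to 11.3 for control, 12.1 to 12.3 for Ph3h and 13.6 to 15.3 for Ph24h. Those of the oligodendrocyte lineage ranged from 261 to 321, from 413 to 471 and from 207 to 240. The part of these cell types in the values below was not tested. The 75th percentile of intensity itself lay between 356 and 473 in control, between 185 and 211 in Ph3h, and between 156 and 161 in Ph24h, so each level below is relative to that percentile of its own array.

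Igf1 had 5 probes, each of 60 bases, and they are kept apart because they did not move alike. The middle 30 bases of each are printed in the probe's order from 5′ to 3′, with the outer 30 not shown. A pair of the probes overlap by 40 bases, and capitals mark the bases that this pair shares. Positions are those of the array files on mm9.

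Igf1, start 889 of the transcript record NM_010512, chr10:87393561-87393620, plus strand: taataAGTCCAATAACATTACAAAGATGGG
Igf1, start 909 of the same record, chr10:87393581-87393640, plus strand: CAAAGATGGGCATTTCCCCCAATGAaatat
Igf1, start 3252 of the same record, chr10:87395924-87395983, plus strand: ataagaggtcagctgaccatccacctgctt
Igf1, start 6909 of the same record, chr10:87399581-87399640, plus strand: gaagtggttattcaattcatttatggcaga
Igf1, start 1027 of the transcript variant 2 record NM_184052, chr10:87378456-87378515, plus strand: gccaccaagaccttccctccccttcttaaa

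The probes at 3252 and 6909 lie 2343 and 6000 bases beyond the probe at 909, in the genome as in the record, so no intron separates them. The probe of variant 2 lies upstream of the other 4 in the genome. Which exon or untranslated region each one falls in was not determined, since no annotation of mm9 was used here.

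At 24 h Igf1 was lower by all 4 probes of NM_010512, from 2.82-fold by the probe at 909 to 6.99-fold by the probe at 6909. The probe of variant 2 was the exception, with no fall. At 3 h the same 4 probes were lower by less, from 1.15-fold to 1.96-fold. A lower level in these bulk samples can be fewer cells with the transcript or less transcript per cell, which cannot be told apart. The summed level of microglial markers was higher than in control in Ph3h and lower in Ph24h, and its part in the Igf1 values was not tested.

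The brightest probe, at 909, stood at 6.72, 6.73 and 6.83 in control on the log2 scale relative to the array's 75th percentile, at 6.60, 6.55 and 6.52 in Ph3h, and at 5.28, 5.31 and 5.20 in Ph24h. The 3 groups do not overlap, and the 3 Ph24h arrays sit far under the rest. The difference in log2 level was -0.20 ± 0.06 (SE, n = 3 and 3) at 3 h, with an adjusted p of 0.0296 from limma, and -1.5 ± 0.06 at 24 h, with an adjusted p of 1.55e-06. The call at 3 h was lost in 8 of 23 alternative settings. Among them were slide 1 alone (-0.14, limma adjusted p = 0.191) and the replicate block (adjusted p = 0.0658). It was also lost in the fits without control replicate 2 or 3 or Ph3h replicate 2 or 3 (adjusted p from 0.0594 to 0.092). The call at 24 h held in all 23. Raw intensity at this probe before this scaling lay between 40370 and 49650 on control arrays, 17340 and 20520 on Ph3h arrays, and 5926 and 6182 on Ph24h arrays, with no saturated spot on any array.

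The overlapping probe at 889 gave 6.59, 6.62 and 6.66 in control, 6.39, 6.41 and 6.33 in Ph3h, and 5.10, 5.14 and 4.94 in Ph24h. Its log2 differences, -0.25 ± 0.07 at 3 h (limma adjusted p = 0.0197) and -1.56 ± 0.07 at 24 h (adjusted p = 2.10e-06), lie close to those of its neighbour. The call at 3 h was lost in 5 of 22 alternatives, among them slide 1 alone (adjusted p = 0.0893) and the fits without control replicate 2 or 3 or Ph3h replicate 3 (adjusted p from 0.0531 to 0.0614). The probe at 3252 read 0.61, 0.61 and 0.70 in control, 0.18, 0.15 and 0.12 in Ph3h, and -1.51, -1.87 and -1.69 in Ph24h. This was a difference of -0.49 ± 0.09 at 3 h (limma adjusted p = 0.00357) and -2.33 ± 0.09 at 24 h (adjusted p = 1.37e-06), or 5.04-fold lower. On slide 1 alone the 3 h call was lost (-0.44, adjusted p = 0.0686). The probe at 6909 read 4.16, 4.17 and 4.07 in control, 3.32, 3.05 and 3.13 in Ph3h, and 1.41, 1.19 and 1.39 in Ph24h. Its fall was the largest of the 5 probes at both times, with log2 differences of -0.97 ± 0.09 (adjusted p = 0.000122) and -2.80 ± 0.09 (adjusted p = 5.86e-07). Within slide 1 the difference at 24 h by this probe was -2.87 and within slide 2, with 1 array per group, -2.68.

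**Figure D1:**
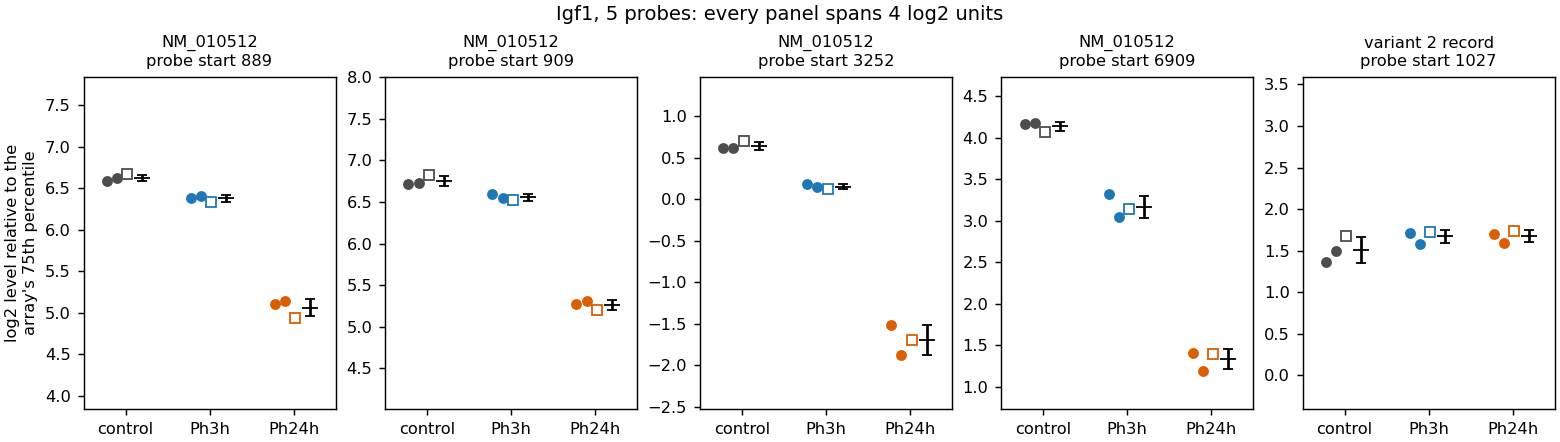
Levels of the 5 Igf1 probes on each of the 9 arrays (vertical axes, log2 relative to the array's 75th percentile, 4 log2 units in every panel), by group. Filled circles are slide 1, open squares slide 2, and black bars the mean ± SD of 3 arrays; the 4 probes of NM_010512 fall by 24 h, to 5.06, 5.26, -1.69 and 1.33 on average, and the variant 2 probe stays between 1.36 and 1.74.

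The variant 2 probe stood at 1.36, 1.5 and 1.67 in control, 1.72, 1.58 and 1.72 in Ph3h, and 1.70, 1.59 and 1.74 in Ph24h, with overlap between all groups. Its log2 difference from control was 0.16 at 3 h (95% interval -0.06 to 0.39) and 0.17 at 24 h (-0.06 to 0.39), with limma adjusted p of 0.190 and 0.165. These intervals leave out a fall of the size that any other Igf1 probe showed at 24 h. Under median scaling, where the median of all genes moved to -0.50 at 24 h, the value of the variant 2 probe turned to -0.34 (adjusted p = 0.00841), which is still above that median. With normexp it was 0.21 (adjusted p = 0.0499).

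Because the difference between 2 probes on the same array does not depend on the 75th percentile or on the median, the probes were also compared with each other, in 5 pairs chosen after their values were seen. The level at 6909 minus that at 909 was -2.55, -2.56 and -2.76 in control, -3.29, -3.50 and -3.38 in Ph3h, and -3.87, -4.11 and -3.81 in Ph24h. The groups are fully separate and in the order control, Ph3h, Ph24h. The shift from control was -0.77 at 3 h and -1.31 at 24 h. As the pairs were picked for their values, no test is given for them. The probe at 3252 against that at 909 shifted by -0.29 at 3 h and -0.84 at 24 h, and the variant 2 probe against that at 909 by 0.36 and 1.66. Between the overlapping probes at 889 and 909 the shift was -0.05 and -0.07. The probe at 6909 moved apart from that at 3252 by -0.48 at 3 h and -0.47 at 24 h from control, where this difference had an SD of 0.11 in control, 0.12 in Ph3h and 0.09 in Ph24h. From 3 to 24 h both probes of this pair fell by a further 1.84, but the falls at 6909 and 3252 were -1.63 and -1.36 with normexp and -1.74 and -1.96 with quantile normalization.

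**Figure D2:**
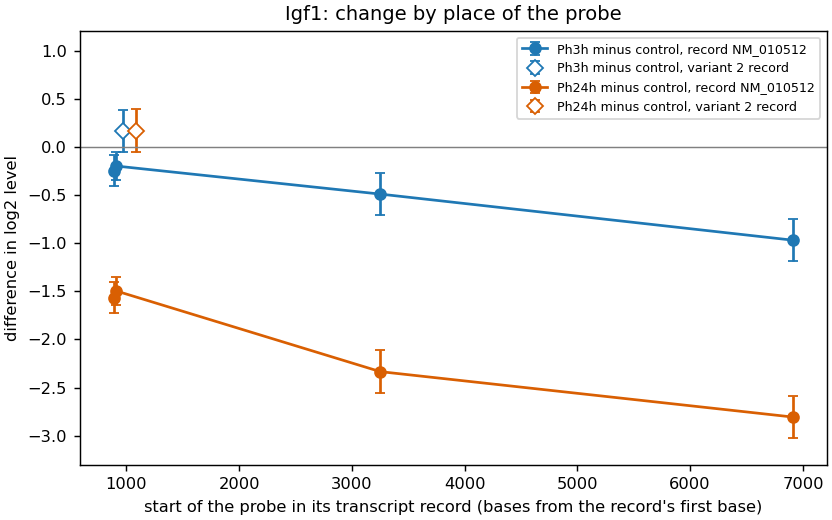
Difference in log2 level from control (vertical axis, limma estimate with its 95% interval, 3 arrays per group) against the start of each Igf1 probe in its transcript record (horizontal axis, bases). Along NM_010512 the value at 24 h goes from -1.5 at 909 to -2.80 at 6909, and at 3 h from -0.20 to -0.97; the open diamonds, the variant 2 probe, lie above 0 and are set apart sideways only to be visible.

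Other transcripts also lost signal from their far probe relative to their near one. Among 640 other genes with probes of 1 record at least 2000 bases apart and well above background on all 9 arrays, the far minus near difference shifted from control by a median of -0.23 at 3 h and -0.43 at 24 h. From the 5th to the 95th percentile these genes ran from -1.68 to 0.70 at 3 h and from -1.73 to 0.59 at 24 h. Igf1, with its first and last probe at 889 and 6909, shifted by -0.72 and -1.24, and 20.6% and 12.7% of the other genes shifted further down. Igf1 is therefore on the low side of this range and within it.

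The other ligand, Igf2, a growth factor of fetal tissue, could not be told from background on any of the arrays. Its 1 probe read an intensity of 2.99 to 8.22, and no test was made. The H19 transcript, whose gene lies beside Igf2 in an imprinted domain, is described below with the imprinted neighbours.

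Both receptors were lower in phagocytic microglia, in 2 steps. Igf1r, the signalling receptor of IGF1, read -0.41, -0.33 and -0.35 in control, -0.74, -1.01 and -0.85 in Ph3h, and -1.42, -1.77 and -2.08 in Ph24h by its 1 probe. The 3 groups do not overlap. The log2 difference from control was -0.51 ± 0.16 at 3 h (limma adjusted p = 0.0333) and -1.39 ± 0.16 at 24 h (adjusted p = 0.000229), or 2.63-fold lower, and from Ph3h to Ph24h it was -0.89 ± 0.16 (adjusted p = 0.00351). The call at 3 h was lost in 7 of 24 alternatives, including slide 1 alone (adjusted p = 0.077) and the fits without any 1 control array or without Ph3h replicate 2 or 3 (adjusted p from 0.0679 to 0.099). The call at 24 h was lost in none.

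Igf2r, the clearance receptor of IGF2, which also carries mannose 6-phosphate enzymes to lysosomes, had 10 spots of 1 probe. It read 1.95, 1.96 and 1.90 in control, 1.41, 1.57 and 1.49 in Ph3h, and 1.08, 0.89 and 0.95 in Ph24h. Again the groups follow each other with no overlap. The log2 difference was -0.45 ± 0.07 at 3 h (limma adjusted p = 0.00163) and -0.96 ± 0.07 at 24 h (adjusted p = 2.77e-05), 1.95-fold lower. Within slides 1 and 2 the difference at 24 h was -0.97 and -0.95.

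Of the adaptors, Irs2 was higher and Irs1 was hardly detected. IRS2 is the adaptor that insulin, IGF1 and interleukin-4 receptors use to reach PI3K. Its probe, on mm9 at chr8:11004490-11004549 on the minus strand, is shown as the only member probe higher at both times.

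Irs2, middle 30 bases: tgccagcacctatgcaagcatcgacttcct

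Irs2 read 2.06, 1.84 and 2.09 in control, 3.23, 2.78 and 3.06 in Ph3h, and 2.98, 2.90 and 2.77 in Ph24h. All 6 fed arrays were above all 3 controls, and the fed groups overlap each other. The log2 difference from control was 1.03 ± 0.13 at 3 h (limma adjusted p = 0.000474), 2.05-fold, and 0.89 ± 0.13 at 24 h (adjusted p = 0.000783), 1.86-fold. Between Ph24h and Ph3h it was -0.14 (95% interval -0.45 to 0.17, adjusted p = 0.428). Both calls against control held in all 24 alternatives, the closest being 0.38 under median scaling at 24 h (adjusted p = 0.0483). Within slide 1 the differences were 1.06 and 0.99, and within slide 2 they were 0.97 and 0.69. Before scaling, the intensity of the Irs2 probe ran from 1472 to 1966 over the control arrays, from 1272 to 1988 over Ph3h, and from 1101 to 1243 over Ph24h, so the higher level is one relative to the other probes of the same array. The neuroblast marker sum was also higher at both times, and its part in the Irs2 values was not tested. Of the 2 Irs1 probes, 1 was above background on control replicate 2 alone and the other on no array.

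**Figure D3:**
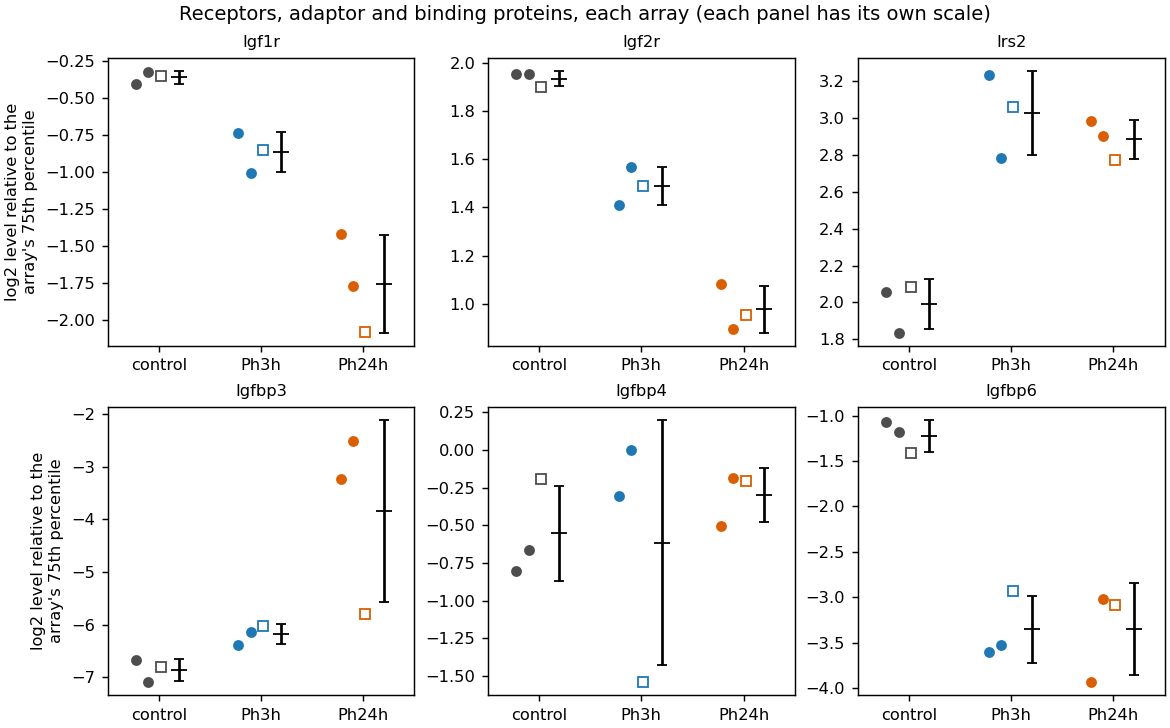
Levels of 6 other members on each array (log2 relative to the array's 75th percentile, own scale in each panel), by group, with symbols as for Igf1. Igf1r and Igf2r step down from control to Ph3h to Ph24h, Irs2 sits between 2.77 and 3.23 in the fed groups, and the groups of Igfbp4 overlap.

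The binding proteins did not change together. Igfbp6, which prefers IGF2 to IGF1, was the one that fell. It read -1.07, -1.18 and -1.41 in control, -3.61, -3.52 and -2.93 in Ph3h, and -3.93, -3.02 and -3.08 in Ph24h, where 2 of 3 arrays were above background. The log2 difference was -2.13 ± 0.28 at 3 h (limma adjusted p = 0.000592) and -2.12 ± 0.28 at 24 h (adjusted p = 0.000472), near 4.36-fold lower at 24 h, with a 24 h minus 3 h value of 0.01 (95% interval -0.66 to 0.67). Intensity at the probe was 133.5 to 224.3 in control and 10.3 to 26.1 in the fed groups, near the lower limit of detection. When normexp was used to correct the background, followed by quantile normalization, the differences at the 2 times were -0.99 and -1.09, and both stayed called.

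Igfbp3, the main carrier of IGF1 in blood, was detected only at 24 h and only on slide 1, by 1 of its 2 probes. Both are shown because they differ.

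Igfbp3, start 1389 of an Ensembl transcript record, chr11:7107949-7108008, minus strand: tttggtttctgaattagagatgtccctagt
Igfbp3, start 1882 of the record NM_008343, chr11:7106594-7106653, minus strand: cacagatttcttttcatcttcctatctaaa

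The first read -6.68, -7.09 and -6.80 in control and -6.39, -6.13 and -6.03 in Ph3h, none of them above background, and -3.23, -2.51 and -5.80 in Ph24h, where replicates 1 and 2 were above background and replicate 3 was not. It was at least 1.90-fold higher in Ph24h than in control (limma adjusted p = 0.0103), a bound against the lowest signal well above background on the control arrays. Both arrays that detected it were on slide 1, and on slide 2 neither the control nor the Ph24h array did. The probe entered the test only through the Ph24h arrays that detected it, so its call as higher is tied to the filter. The call against control was lost with quantile normalization (2.21, adjusted p = 0.0513). That against Ph3h (at least 1.28-fold, adjusted p = 0.0406) was lost in 14 of 20 alternatives. The second probe was above background on no array, with an intensity of 2.57 to 10.9.

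Igfbp4, a carrier that the protease PAPP-A cleaves, was above background on all 9 arrays. It read -0.80, -0.66 and -0.20 in control, -0.31, 0.00 and -1.54 in Ph3h, and -0.50, -0.19 and -0.21 in Ph24h. The groups overlap, and Ph3h replicate 3, on slide 2, lies lowest. Its log2 difference from control was -0.06 at 3 h (95% interval -0.96 to 0.84) and 0.26 at 24 h (-0.65 to 1.16), so changes of close to 2-fold either way are within reach of the error. Without Ph3h replicate 3 the value at 3 h was 0.40 (limma adjusted p = 0.174). Igfbp5, an abundant binding protein of bone and muscle, was above background on control replicate 2 alone.

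By the brightest probe of each gene, 1 of the 9 tested members (Irs2) was higher at 3 h and 4 (Igf1, Igf1r, Igf2r and Igfbp6) were lower, where 27.5% of all 24101 genes were higher and 25.5% lower. At 24 h 2 (Igfbp3 and Irs2) were higher and the same 4 lower, against 29.6% and 32.8% of all genes. From 3 to 24 h 1 (Igfbp3) was higher and 3 (Igf1, Igf1r and Igf2r) were lower, against 19.9% and 23.5%. Igfbp3 entered the test only through 2 Ph24h arrays, so its calls as higher are not independent of the filter. Under a filter that asks for all 3 arrays of 1 group, 1 member was higher at 24 h and 0 from 3 to 24 h. With so large a share of the array called, a count of 4 of 9 does not set the members apart from other genes. The median log2 difference of the 9 members was -0.23 at 3 h and -0.01 at 24 h, where that of all genes was 0.07 and 0.01. Both fed groups were set against the same 3 control arrays, so their calls are not independent of each other.

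**Figure D4:**
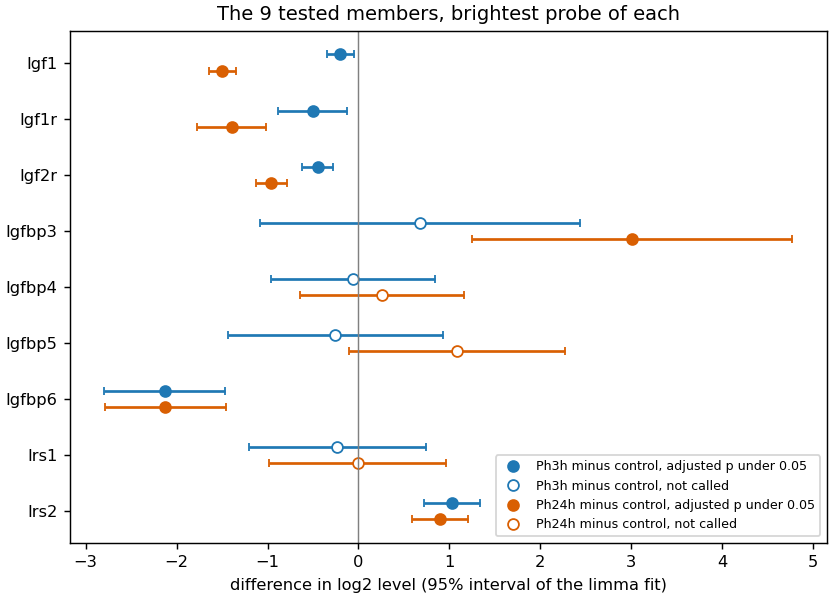
Difference in log2 level from control for the brightest probe of the 9 tested members (limma estimate with its 95% interval, 3 arrays per group), Ph3h in blue and Ph24h in orange; filled points have an adjusted p under 0.05. Igf1, Igf1r, Igf2r and Igfbp6 lie left of 0 at both times and Irs2 right of 0, while the interval of Igfbp3 at 24 h runs from 1.25 to 4.77 with no control array and 2 of 3 Ph24h arrays above background.

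The genes whose pattern over the 9 arrays was most like that of the brightest Igf1 probe were Lmo2, Trem2, Slc38a1, Hfe and Tns3. Likeness was the root mean square distance between log2 levels after each probe's mean was removed, over 14774 genes with a symbol. It was 0.0431 for Lmo2, a transcription cofactor of blood cells, and 0.0619 for Trem2, a lipid receptor of microglia. Those of Slc38a1, Hfe and Tns3 were 0.0763, 0.0808 and 0.0875. Lmo2 differed from control by -0.21 at 3 h and -1.57 at 24 h, and Trem2 by -0.17 and -1.43. The distances rest on the same 9 arrays and are a description.

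Of 87 other genes of the pathway in 7 lists, 78 were tested. Against the shares of all genes given above, 27.5% higher and 25.5% lower at 3 h and 29.6% and 32.8% at 24 h, the lists are described by their counts only. In Ph3h, 25 of these had a higher level than in control and 24 a lower one, and in Ph24h 26 had a higher level and 35 a lower one. The median log2 difference was 0.01 at 3 h and -0.12 at 24 h. Under median scaling the 24 h split was 15 higher and 44 lower, where the share of higher among all called genes went from 47.4% to 23.8%.

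The list of other ligand carriers and proteases also held Igf2bp1, Igf2bp2 and Igf2bp3, which are mRNA-binding proteins. Of its 10 tested genes, the 3 h arrays had 1 higher (Igf2bp2) and 3 lower. The 24 h arrays had 3 higher, Igf2bp1 among them, and 5 lower, which include Igf2bp2 and Igf2bp3. The counts are thus not of carriers and proteases alone. Pappa2, a protease of IGF binding proteins, read -0.38, -0.39 and -0.32 in control, -2.22, -2.15 and -1.92 in Ph3h and -0.67, -0.85 and -0.99 in Ph24h. It was thus lowest at 3 h (log2 difference -1.73 ± 0.11, limma adjusted p = 1.52e-05) and partly back at 24 h (-0.47 ± 0.11, adjusted p = 0.00676). Stc2, an inhibitor of the related protease PAPP-A, was above background on no Ph3h array, and at 24 h was 2.07-fold higher than in control (adjusted p = 0.000454). Htra1, a serine protease, was 2.88-fold lower at 24 h (adjusted p = 7.71e-05). Pappa itself was not above background.

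Among insulin-related receptors and adaptors, 8 of 11 were called at 3 h, 6 of them higher, and 7 at 24 h, of which 5 were lower. Sh2b2 and Gab1, adaptors downstream of receptor kinases, had their highest level at 3 h. Sh2b2 read 2.19, 1.99 and 2.14 in control, 3.66, 3.56 and 3.72 in Ph3h and 1.93, 1.80 and 1.90 in Ph24h, or 2.91-fold higher at 3 h (limma adjusted p = 6.18e-06) and lower than control at 24 h (-0.23 ± 0.08, adjusted p = 0.0409). For Gab1 the rise at 3 h was 2.94-fold (adjusted p = 0.000275), and its 24 h difference was 0.42 ± 0.18 (adjusted p = 0.0739). Irs3 rose by 1.28 ± 0.17 and 1.69 ± 0.17 on the log2 scale at 3 and 24 h (adjusted p = 0.000688 and 0.00013). The insulin receptor Insr, outside the naming rule and chosen after its values were seen, was lower at both times (-1.27 ± 0.13 and -0.99 ± 0.13, adjusted p = 0.000156 and 0.00043).

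Of 12 genes of PI3K, AKT and GSK3 kinases, 4 had a lower level in Ph3h and 2 a higher one, and in Ph24h 5 and 3. Pik3r3, a regulatory subunit of PI3K, read -0.10, -0.14 and -0.13 in control, -2.26, -2.50 and -2.04 in Ph3h and -0.51, -0.62 and -0.68 in Ph24h. Like Pappa2 it was lowest at 3 h (-2.14 ± 0.12, limma adjusted p = 7.84e-06) and nearer control at 24 h (-0.48 ± 0.12, adjusted p = 0.00925). Gsk3a, a kinase that AKT inhibits, rose 1.78-fold by 24 h (adjusted p = 0.000122).

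In the TOR branch, the lower calls went from 5 of 13 genes in Ph3h to 7 in Ph24h, with 4 higher in each. Over all genes the lower calls went from 25.5% to 32.8%, and the higher ones from 27.5% to 29.6%. Rheb, the small GTPase that activates TOR complex 1, read 3.46, 3.43 and 3.50 in control, 4.57, 4.59 and 4.39 in Ph3h and 4.29, 4.22 and 4.16 in Ph24h. Its level was 2.07 times that of control in Ph3h and 1.70 times in Ph24h (limma adjusted p = 2.75e-05 and 9.62e-05). Tsc1, a subunit of the complex that turns Rheb off, was also higher (0.89 ± 0.07 and 0.33 ± 0.07 on the log2 scale, adjusted p = 3.67e-05 and 0.0038). Mtor, the kinase itself, was lower at 3 h (-0.35 ± 0.09, adjusted p = 0.0124) and at 24 h (-0.96 ± 0.09, adjusted p = 6.40e-05). A dimmer probe of Mtor differed by 0.16 at 3 h, not called, and -0.44 at 24 h.

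Of 13 inhibitors of the pathway, 6 were called higher at either time, beside 4 called lower in Ph3h and 6 in Ph24h. Trib3, a pseudokinase that binds AKT and is induced by cell stress, read 7.26, 7.02 and 7.30 in control, 4.49, 4.55 and 4.69 in Ph3h and 4.72, 4.64 and 4.62 in Ph24h. It was 6.13-fold lower at 3 h and 5.78-fold lower at 24 h (limma adjusted p = 1.13e-06 and 9.47e-07). Grb10, an imprinted adaptor that inhibits insulin and IGF1 receptors, fell to background in both fed groups, by at least 1.68-fold at 3 h and 1.25-fold at 24 h (adjusted p = 7.06e-05 and 5.69e-05), since no fed array was above background. Pik3ip1, an inhibitor of PI3K, had fallen by at least 2.58-fold in Ph24h (adjusted p = 0.00205), where no array was above background. The Grb10 probe entered the test only through control arrays, and that of Pik3ip1 only through control and Ph3h arrays. These calls as lower are therefore tied to the filter.

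Of 15 FOXO factors and classic FOXO targets, Ph3h had 5 in each direction, and Ph24h had 7 above control and 6 below. The largest values were those of Foxo6 and Foxo3. Foxo6, a factor of neurons, was above background on no control array and was at least 41.9-fold higher at 3 h and 93.8-fold at 24 h (limma adjusted p = 3.24e-06 and 1.10e-06). The Foxo6 probe entered the test only through the fed arrays, so its calls as higher are tied to the filter. Foxo3 read -3.59, -3.68 and -2.88 in control, 1.41, 1.29 and 1.16 in Ph3h and 2.15, 2.08 and 1.93 in Ph24h, 25.4-fold and 43.2-fold higher (adjusted p = 2.87e-06 and 1.06e-06). G6pc, a gluconeogenic enzyme and FOXO1 target of liver, was near the limit of detection, above background on 1 control, 2 Ph3h and 3 Ph24h arrays, so no fold is given. It read -5.43, -4.92 and -5.84 in control, -3.68, -3.63 and -3.98 in Ph3h, and -2.85, -2.94 and -1.80 in Ph24h, and was called higher at both times (adjusted p = 0.00591 and 0.00029). The sum of neuroblast markers given above moved the same way as these 3 genes, and its part in them was not tested.

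Of the imprinted neighbours, 1 of 4 was called higher and 1 lower at each time. The higher one was H19, a maternally expressed non-coding RNA. By its brightest probe it was at least 13.5-fold higher at 24 h (limma adjusted p = 5.60e-06). At 3 h this probe was above background on no control or Ph3h array, so its call there (adjusted p = 0.0328) is no measured rise. The 4 tested probes of H19 disagreed at 24 h. A second was at least 2.82-fold higher (adjusted p = 0.00114). Another was called lower (adjusted p = 0.0115) with no Ph24h array above background, and the last was not called (adjusted p = 0.960). The H19 probes called higher at 24 h entered the test only through Ph24h arrays, and the one called lower only through control and Ph3h arrays. These calls are therefore tied to the filter. Airn, the antisense RNA of the Igf2r locus, was 1.78-fold and 1.66-fold lower at 3 and 24 h by its brightest probe (adjusted p = 0.00671 and 0.0102). A second probe was 2.45-fold and 4.71-fold lower (adjusted p = 0.00841 and 0.000464), and the last was not called at either time. Igf2r was lower at the same times.

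**Figure D5:**
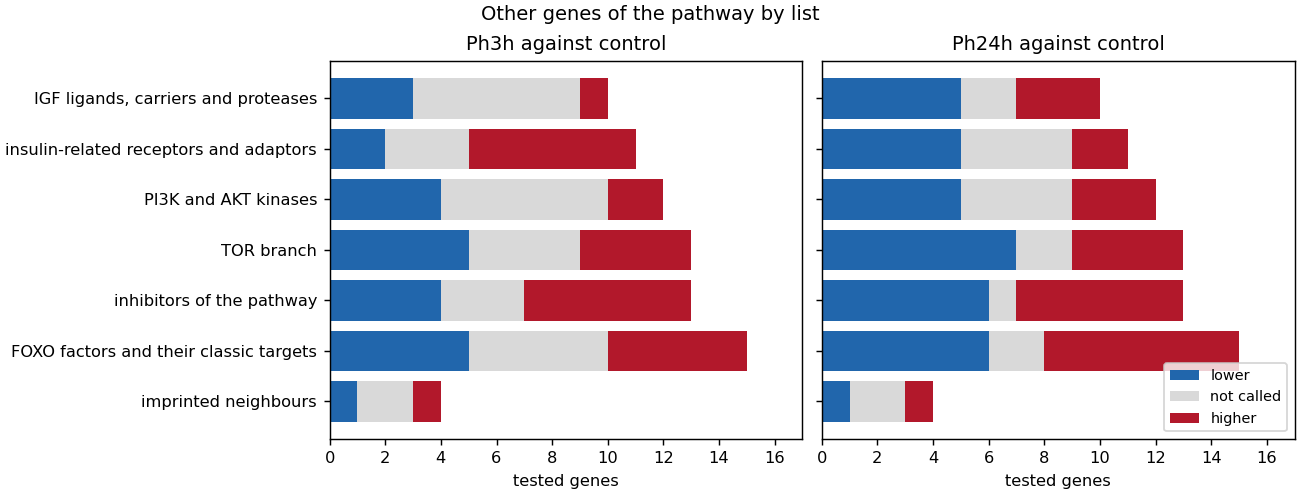
Number of tested genes (horizontal axis) called lower, not called and called higher against control (limma, adjusted p under 0.05, brightest probe of each gene) in 7 lists of other pathway genes, at 3 h on the left and 24 h on the right. Insulin-related receptors and adaptors go from 6 higher and 2 lower at 3 h to 2 higher and 5 lower at 24 h. The TOR branch has 7 of 13 lower at 24 h. Of all genes 27.5% were higher and 25.5% lower at 3 h, and 29.6% and 32.8% at 24 h.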

How the data were processed

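RNA of 9 microglial samples, 3 per group, was labelled in one color and hybridized to mouse 60-mer arrays. The authors deposited scanner files made with Agilent Feature Extraction 10.7.3.1, whose processed signal is a background-subtracted fluorescence intensity on a linear scale, not normalized between arrays. The authors also deposited a log2 value table (36655 probes), used as an alternative only, for which no source used here states the scaling between arrays. Intensities were converted to log2 without spots flagged as non-uniform or population outliers, spots were averaged per probe, and the array's 75th percentile was subtracted. Among 59305 non-control spots, 56 probes were dropped because all their spots were flagged on 1 or more arrays.

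A probe was tested where 1 or more arrays had it well above background. All 3 groups entered a joint limma fit (version 3.58.1, R 4.3.3), with Benjamini-Hochberg adjustment over the 34381 probes and calls at adjusted p under 0.05. Gene counts use the brightest probe. A bound ("at least") sets a group against the lowest signal well above background. Precision is limited by the number of arrays, 3 per group. The members and lists were chosen with earlier results of these data known. Named genes were all members, up to 3 called genes per pathway list with the largest change, and the 5 genes nearest to Igf1, except 1 gene that is not reported here. Sequences are those of the array files. The 10 member names matched RefSeq (GRCm38.p6). The fits were tested on simulated data. Same-numbered replicates did not deviate together (r from -0.05 to 0.04), so no block was used. In all, 24 alternatives were tried.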

Additional observations from a re-analysis of the deposited data

Results flagged for a closer look

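The change from control differed between 3 h and 24 h, by the direct limma contrast of Ph24h and Ph3h, for 7 member probes. On the log2 scale, Igf1 was lower at 24 h than at 3 h by -1.32 (probe at 889, adjusted p = 8.3e-06), -1.3 (at 909, adjusted p = 5.8e-06), -1.84 (at 3252, adjusted p = 7.5e-06) and -1.84 (at 6909, adjusted p = 7.6e-06). Igf1r was lower by -0.89 (adjusted p = 0.0035) and Igf2r by -0.51 (adjusted p = 0.001). The fitted value for Igfbp3 was 2.34 (adjusted p = 0.041), but no Ph3h array and only 2 of the 3 Ph24h arrays were above background, so it is no measured size. The bound is at least 1.28-fold higher, and the call was lost in 14 of 20 alternatives. Groups of 3 arrays were too small to search for single outlying arrays.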

How the results depend on the processing

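Of 236 recomputed counts, 205 were within 1.5 times the reported one. At 24 h the 4 members lower than in control were 4 in all 24 alternatives, and the 3 lower than at 3 h were 3 in all 22. Members higher at 3 h numbered 2 in the fit of only the 2 groups compared and in the regression on time with R2 above 0.7. The added member there, and in the fit without Ph24h replicate 3, was Igfbp3. No control or Ph3h array had Igfbp3 above background, so this is no measured rise. Members lower at 3 h numbered 2 on slide 1 alone and 1 in the regression with R2 above 0.9 and a fold of 1.5. Members higher at 24 h numbered 1 with quantile normalization, the authors' value table, no filter, a filter that asks for all 3 arrays of 1 group, or the stricter regression. From 3 to 24 h, 0 members were higher with quantile normalization, median scaling, normexp, the value table, the stricter or no filter, or the replicate block. At an unadjusted p under 0.05, limma gave 2 (Igfbp3 and Igfbp5) as reported, 0 with the value table or the stricter filter, 2 with the block and 1 with the others. Leaving out each array gave 1 to 2 higher and 2 to 4 lower members at 3 h, 2 to 3 higher and 4 lower at 24 h, and 0 to 1 higher and 3 lower from 3 to 24 h. The count of 2 lower at 3 h came without control replicate 2 or 3 or Ph3h replicate 2 or 3, that of 2 higher without Ph24h replicate 3, and that of 0 higher from 3 to 24 h without control replicate 1 or 3, any Ph3h replicate, or Ph24h replicate 1 or 2. Pathway genes lower numbered 14 at 3 h and 15 at 24 h in the stricter regression, and those higher at 24 h 15 under median scaling. Leaving out each array gave 22 to 26 higher and 18 to 24 lower pathway genes at 3 h and 25 to 27 and 33 to 35 at 24 h. The cause of these differences was not tested.

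Some differences that were not called as reported changed sign. Under median scaling the variant 2 probe of Igf1 gave -0.0804 at 3 h, -0.34 at 24 h and -0.26 from 3 to 24 h. Those at 24 h and from 3 to 24 h were then called lower (limma adjusted p = 0.00841 and 0.0403). From 3 to 24 h the same probe gave -0.0055 on slide 1 alone and -0.0424 to 0.0445 over the fits without 1 array. Igfbp4 gave 0.58 on slide 1 at 3 h, -0.25 under median scaling at 24 h and -0.19 on slide 1 from 3 to 24 h, and the fits without 1 array gave -0.37 to 0.40 at 3 h and -0.14 to 0.63 from 3 to 24 h. Igfbp6 from 3 to 24 h gave -0.21 with quantile normalization, -0.26 with median scaling, -0.10 with normexp and -0.21 with the value table, and -0.15 to 0.30 without 1 array. The far minus near difference of Igf1, an alternative chosen after seeing the data, was -0.62, -0.61 and -0.62 at 3 h and -1.21, -1.09 and -1.20 at 24 h with quantile normalization, normexp and the value table. The median of all genes was 0.07 and 0.01 at 3 and 24 h and moved to -0.18 and -0.50 under median scaling and 0.34 and 0.46 without a filter. The share of higher among called genes was 51.9% and 47.4%, against 33.6% and 23.8% under median scaling and 67.2% and 65.3% without a filter.

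Same-numbered arrays share a slide and no other known batch. The replicate block lost the 3 h call of Igf1 at probe 909 (-0.20, adjusted p = 0.0658) and the 3 to 24 h call of Igfbp3 (2.34, adjusted p = 0.0629). It changed no other call of a member probe above. Members lower at 3 h were then 3. Probes near background (Igfbp3, Igfbp5, Igfbp6, Irs1) limit what these arrays can show.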
